A study of Mus musculus with 6 samples.

Results

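The baseline transcriptome described here is that of wild-type thioglycollate-elicited peritoneal macrophages in culture without stimulation, measured on the 3 arrays whose titles name wild-type macrophages, out of 6 arrays in all. The 3 samples are called biological replicates 4, 5 and 6, and each gave a log2 signal for 25206 probe sets, of which 23185 carry a gene name. Every named probe set was ranked by its mean over the 3 arrays and by its SD (standard deviation), and what was abundant, near background or variable was read from those ranks. The cells came from C57BL/6J wild-type littermates of Tet2-deficient mice. The animals received 1 mL of 4% Brewer's thyoglycollate (spelled as in the labels) by intraperitoneal injection, the cells were collected 4 days later and plated in RPMI with 10% fetal bovine serum and antibiotics, no treatment was given, and total RNA was taken 10 h after plating. The other 3 arrays are titled Tet2 deficient and came from cells handled in the same way. They serve below for a check of the Tet2 probe set, for an alternative grouping and as a further set in which to look at spread. Values of a few more genes on them are printed to show that spread. Apart from Tet2, no level was compared between genotypes. Whether each replicate is 1 animal or a pool is not stated in the labels, and no cell sorting is described, so the cells are those that the cavity held and that were plated.

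The labels contradict each other. For 4 of the 6 samples the genotype characteristic states the opposite of the title, and 2 of the 3 arrays titled wild-type, replicates 5 and 6, carry the characteristic Tet2-/-. Replicate 4 is wild-type by both labels. Groups follow the titles, and values are therefore given array by array so that replicate 4 can be read alone. The probe set of Tet2 read 4.35, 3.74 and 3.79 in replicates 4, 5 and 6 and 3.80, 4.05 and 3.67 in replicates 4, 5 and 6 of the arrays titled Tet2 deficient. These ranges overlap. The labels do not say which part of the gene was removed, so this signal does not check either label.

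Thioglycollate broth is an irritant that draws blood monocytes into the peritoneal cavity, where they mature into large, vacuolated macrophages beside the few resident macrophages that remain. Macrophages take up particles and lipoproteins through scavenger, lectin and Fc receptors and break them down in lysosomes, which a proton pump, the V-ATPase, keeps acid. They also carry sensors for microbes, and many of the cytokine genes that these sensors control are switched on only after a stimulus.

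A log2 unit is a doubling of signal. Array probes bind with different strength, and the signal is not scaled to transcript length, so the order of genes below is an order of signal and not of transcript amount. As a yardstick for background, the 1406 probe sets of olfactory, vomeronasal, taste and trace amine receptors were used, genes of sensory tissues. Their means had a median of 1.20, and the 95th percentile, 2.44, is called the reference here. Of the 23185 named probe sets, 13437 (58.0%) had a mean at or above the reference and 9748 lay below it. The reference was met on every array by 12650 probe sets and on no array by 8820, and 1715 fell on both sides of it. Replicate 4 alone placed 13337 named probe sets at or above the reference, replicate 5 placed 13628 and replicate 6 placed 13495. The means ran from 0.51 to 11.94 with a median of 2.85, and the 5798 probe sets (25.0%) from 5.06 upward are called the top 25%. A mean of at least 8 was reached by 807 probe sets (3.48%), a mean of at least 10 by 123 and a mean of at least 11 by 28. The reference does not separate all sensory receptors: Olfr1303 had the highest mean among them, 5.40, and 2 of them lay in the top 25%.

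**Figure D1:**
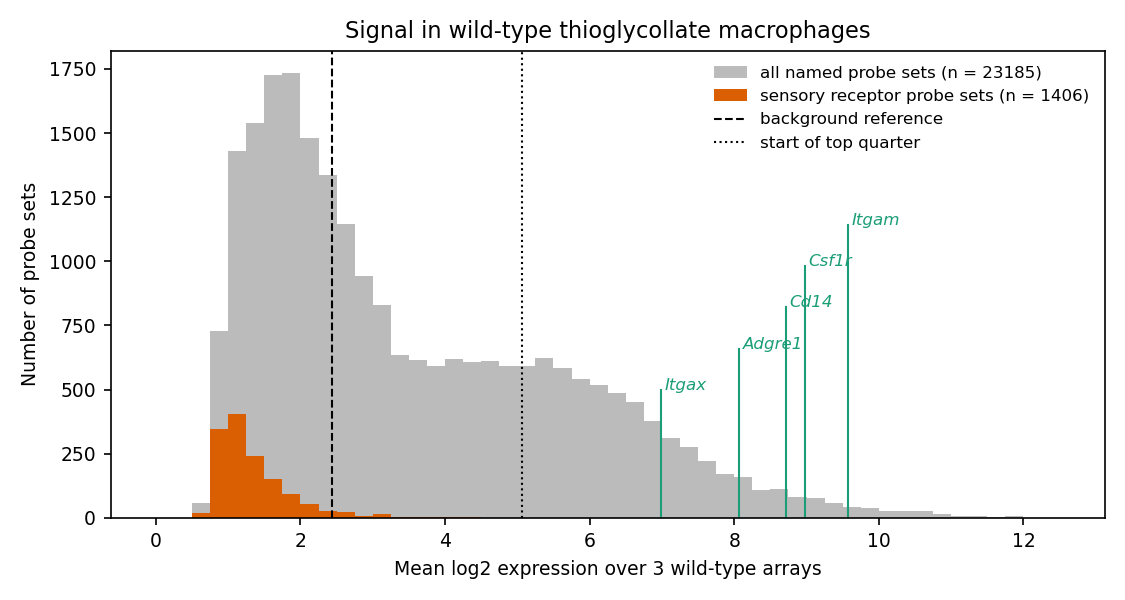
Number of named probe sets (vertical axis) by mean log2 expression over the 3 wild-type arrays (horizontal axis), with the 1406 sensory receptor probe sets in orange, the reference of 2.44 as a dashed line and the start of the top 25% at 5.06 as a dotted line. Green lines mark the means of the 5 macrophage markers, all to the right of the dotted line, and the heights of these lines have no scale.

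All 5 macrophage markers lay in the top 25% on each array. Itgam, the alpha chain of the complement receptor CR3, read 9.93, 9.38 and 9.42 in replicates 4, 5 and 6. Csf1r, the receptor for the growth factor that macrophages need to survive, read 9.37, 8.75 and 8.80. Both were highest in replicate 4, with replicates 5 and 6 within 0.1 of each other. Cd14, the co-receptor for lipopolysaccharide, read 8.84, 8.57 and 8.74, and Adgre1, which encodes the F4/80 antigen, read 8.35, 7.86 and 8.0. Itgax, the CD11c integrin chain, was the lowest of the markers at 7.05, 6.80 and 7.11. Their means ± SD (n = 3) were 9.58 ± 0.31 for Itgam, 8.97 ± 0.34 for Csf1r, 8.72 ± 0.14 for Cd14, 8.07 ± 0.25 for Adgre1 and 6.99 ± 0.16 for Itgax. Of a wider list of 26 measured pan-macrophage genes, 25 lay above the reference, against 58.0% of all named probe sets, and 23 lay in the top 25%, against 25.0%. The list's median level was 9.02. The myeloid lineage factor Spi1 read 9.74 ± 0.09, the lysosomal antigen Cd68 11.01 ± 0.10, the adaptor Tyrobp 10.54 ± 0.13 and its partner receptor Trem2 10.39 ± 0.04. At the other end stood Cd163, the haemoglobin scavenger receptor, at 2.17 ± 0.13 and below the reference, and the adhesion receptor Adgre4 at 3.59 ± 0.60.

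The highest signals came from a galectin, an iron store, a small nuclear RNA and lysosomal proteases. Lgals3, the galectin long used as a marker of elicited macrophages under the name Mac-2, read 11.89, 11.89 and 12.03 in replicates 4, 5 and 6. The ferritin heavy chain gene Fth1 read 11.96, 11.88 and 11.96, the RNA polymerase II regulator Rn7sk 11.95, 11.84 and 12.00 and the cysteine protease cathepsin B gene Ctsb 11.98, 11.84 and 11.90. The first 3 of these means lie within 0.03 of each other, less than the SD of Lgals3 or of Rn7sk (0.08 each), so their order is not resolved. Mmp12, macrophage elastase, followed at 11.81, 11.81 and 11.95, and Ctsd, the aspartic protease cathepsin D, at 11.86, 11.77 and 11.82. Among the 40 highest probe sets, 30 are protein coding, 6 are small nucleolar RNAs, 2 are pseudogenes (Gm8618 and Gm9794), and the others are Rn7sk and Rmrp, the RNA of the RNase MRP complex. Besides those named, the protein-coding ones include Psap (11.71), precursor of the saposins, Ctss (11.61), Gpnmb (11.61), Apoe (11.43), Srgn (11.32), the inhibitory receptor gene Lilrb4a (11.26), the late endosomal GTPase gene Rab7 (11.23) and the acute-phase gene Saa3 (10.94). The signal of a processed pseudogene may come from the transcripts of its parent gene, which the array values cannot tell apart.

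Lysosomal genes filled the upper end of the range. All 19 measured genes of the list of lysosomal hydrolases and membrane proteins lay in the top 25%, with a median level of 10.50. Their lowest member was the acid alpha-glucosidase Gaa at 6.46 ± 0.19, and between it and Ctsb stood Ctsl (10.98 ± 0.08), the acid lipase Lipa (10.92 ± 0.14), the cholesterol carrier Npc2 (10.50 ± 0.06) and the membrane protein Lamp1 (10.63 ± 0.09). The 11 measured V-ATPase genes were also all in the top 25%, from Atp6v1h at 7.61 ± 0.20 to Atp6v0d2, a subunit enriched in macrophages and osteoclasts, at 10.55 ± 0.10, with a list median of 9.43. The median SD over the 3 arrays was 0.11 for the lysosomal genes and 0.12 for the V-ATPase genes. It was 0.16 over all named probe sets above the reference and 0.16 over those in the top 25%. Neither of these sets is matched to the level of the 2 lists. The actin cytoskeleton list, with a median level of 9.90, also had a median SD of 0.11, so the low spread was not particular to lysosomal genes.

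The start regions of 3 lysosomal genes are shown because they hold GTCACGTG, an E-box form bound by the lysosomal regulators TFEB and TFE3. The motif was chosen with the levels known. Each line gives the 250 bases before the RefSeq start site on the gene's strand, 5′ to 3′, from the promoter table of GRCm38.p6, with matches on either strand in capitals. They lie at chr7:142387828-142388077 on the minus strand for Ctsd, chr8:13158911-13159160 on the plus strand for Lamp1 and chrX:134601006-134601255 on the minus strand for Gla, the alpha-galactosidase gene, which read 9.46 ± 0.11.
Ctsd: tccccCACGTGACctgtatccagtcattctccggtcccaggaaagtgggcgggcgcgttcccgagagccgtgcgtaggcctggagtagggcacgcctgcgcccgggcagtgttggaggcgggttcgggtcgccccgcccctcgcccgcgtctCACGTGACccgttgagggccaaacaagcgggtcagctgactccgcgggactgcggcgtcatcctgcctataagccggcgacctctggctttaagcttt
Lamp1: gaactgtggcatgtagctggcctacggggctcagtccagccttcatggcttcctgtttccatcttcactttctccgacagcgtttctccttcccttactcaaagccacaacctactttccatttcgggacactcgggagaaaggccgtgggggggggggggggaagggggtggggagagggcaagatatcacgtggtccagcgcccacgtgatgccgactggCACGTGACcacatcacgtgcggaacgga
Gla: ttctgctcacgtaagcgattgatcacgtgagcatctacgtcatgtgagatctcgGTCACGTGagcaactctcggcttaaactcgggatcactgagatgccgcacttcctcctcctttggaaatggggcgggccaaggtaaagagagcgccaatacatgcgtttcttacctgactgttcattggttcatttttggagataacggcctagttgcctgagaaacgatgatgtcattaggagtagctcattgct

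Ctsd carries the motif at a pair of places and the other two genes at 1 place each. Promoters of 300 bases (250 before and 50 after the start site) were found for 17452 named genes, 21141 promoters in all, and were searched on both strands. The E-box stood in 4 of 19 promoters of the lysosomal list (Ctsa, Ctsd, Gla and Lamp1) and 2 of 7 of the V-ATPase list (Atp6v0b and Atp6v0d1), against 2.94% of all promoters. By level, it stood in 1.23% of promoters of genes below the reference, 2.79% of those between the reference and the top 25% and 5.41% of those in the top 25%. GGGCGG, the GC box, went from 24.8% through 55.8% to 65.2% over the same levels, and CCGGAAGT, an ETS family motif, from 1.52% through 5.60% to 9.46%. TATAAA, the TATA box, went the other way, from 19.4% through 8.14% to 6.99%. GAGGAAGT is a form bound by the myeloid factor PU.1 that shares its last 6 letters with the ETS form. It stood in 3 of 22 promoters of the pan-macrophage list (Adgre4, C1qc and Ctss). It also stood in 3 of 19 promoters of the lysosomal list (Ctsc, Gla and Gusb). The shares were 3.00% of all promoters and 3.86% of promoters of genes in the top 25%. None of the motifs searched contains another. A match is a match of letters and not a measured site.

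Uptake receptors were high, with a wide range between members. Of 17 measured scavenger and phagocytic receptors, 16 were above the reference and 14 in the top 25%, with a median level of 6.84. Cd36, a receptor for oxidised lipoproteins and fatty acids, read 11.26 ± 0.11, the beta-glucan receptor Clec7a (dectin-1) 10.36 ± 0.07 and the class A scavenger receptor Msr1 9.02 ± 0.21. The apoptotic cell receptor Mertk read 7.79 ± 0.38 and its relatives Axl 6.01 ± 0.33 and Tyro3 3.03 ± 0.16. All 8 Fc receptor genes and chains were in the top 25% (median 8.44), led by the common gamma chain Fcer1g at 10.72 ± 0.02 and the low-affinity receptor Fcgr3 at 10.01 ± 0.13. All 10 measured complement genes were above the reference (median 8.71): the C1q chains C1qa, C1qb and C1qc read 8.40, 10.41 and 9.02, the anaphylatoxin receptor C3ar1 9.74, and the alternative pathway factor Cfb 3.92.

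Lipid storage, iron and redox genes were prominent. All 14 lipid genes were above the reference, and 11 of them were in the top 25%. Lipoprotein lipase Lpl read 10.71, 10.75 and 10.76, the lipid droplet coat gene Plin2 10.39, 10.36 and 10.41 and the fatty acid carrier Fabp4 9.73, 9.96 and 10.00 in replicates 4, 5 and 6. The 3 arrays lay within 0.05 of each other for Lpl and Plin2. The sterol exporters Abca1 and Abcg1 read 6.37 ± 0.27 and 6.87 ± 0.21, and the desaturase Scd1 3.12 ± 0.45. Of 16 cholesterol synthesis genes, 12 were in the top 25% (median 6.41), from Fdps at 3.62 to Msmo1 at 8.49. In iron handling, the natural resistance transporter Slc11a1 read 9.64 ± 0.16 and haem oxygenase Hmox1 9.26 ± 0.26, while the exporter ferroportin, Slc40a1, read 2.14 ± 0.33, below the reference. All 14 NRF2 target and redox genes were above the reference (median 7.92), with glutathione peroxidase Gpx1 at 11.05 ± 0.06, peroxiredoxin Prdx1 at 10.58 ± 0.13 and the quinone reductase Nqo1, the lowest, at 4.49 ± 0.22.

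Matrix proteases, actin genes and energy metabolism were also high. Of 15 matrix protease and inhibitor genes, 13 were in the top 25% (median 7.51). After Mmp12 came the inhibitor Timp2 at 9.82 ± 0.05, urokinase Plau at 8.10 ± 0.18 and the membrane protease Mmp14 at 7.78 ± 0.28, and the gelatinase Mmp9 read 3.84 ± 0.23. The 13 measured actin cytoskeleton genes had a median of 9.90, led by Actb at 11.63 ± 0.14 and Tmsb4x at 11.33 ± 0.10. All 12 proteasome genes were in the top 25% (median 7.94). For oxidative phosphorylation 14 of 15 genes were above the reference (median 7.76) and for glycolysis 13 of 13 (median 6.15), with lactate dehydrogenase Ldha at 9.01 and the glucose transporter Slc2a1 at 8.03.

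Sensors of microbes were present over a broad range. All 16 Toll-like receptor and adaptor genes were above the reference, and 10 were in the top 25%. The endosomal receptors Tlr8 and Tlr13 read 8.22 ± 0.25 and 8.01 ± 0.29, Tlr4 read 6.87 ± 0.20 and its partner Ly96 9.0 ± 0.12, and the flagellin receptor Tlr5 was lowest at 2.53 ± 0.13. Among 12 inflammasome genes, Casp1 read 8.23 ± 0.16, the adaptor Pycard 6.72 ± 0.23 and the DNA sensor Aim2 6.52 ± 0.15, while the sensor Nlrp3 read 2.86 ± 0.08. For antigen presentation, the class I light chain B2m read 11.24 ± 0.05, and the class II chains H2-Ab1 and H2-Aa read 9.28 ± 0.10 and 7.58 ± 0.12, with their chaperone Cd74 at 9.24 ± 0.29. The class II transactivator Ciita read 2.90 ± 0.24.

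Chemokines and cytokines split into high and near-background members. Of 22 chemokine genes, 14 (63.6%) were above the reference and 9 in the top 25% (median 4.03). Over all named probe sets the shares were 58.0% and 25.0%. Ccl9 and Ccl6, chemokines made constitutively by many mouse macrophages, read 10.33, 10.47 and 10.96 and 9.62, 9.68 and 9.99 in replicates 4, 5 and 6, and the membrane-bound Cxcl16 read 8.95, 8.82 and 8.94. The interferon-inducible chemokines Cxcl9 and Cxcl10 read 1.63 and 2.29, below the reference. Of 18 inflammatory cytokine genes, 9 were above the reference (median 2.75). Tgfb1 read 8.49 ± 0.25, the interleukin-1 receptor antagonist Il1rn 7.47 ± 0.12, Tnf 5.85 ± 0.30 and Il18 5.45 ± 0.03. Il1b read 3.43, 3.03 and 2.84 on the 3 arrays, each above the reference and far below the top 25%. Il6 (1.61, 1.90 and 1.66), Il12b (1.79, 1.98 and 2.01) and Il10 (1.40, 1.33 and 1.33) lay below the reference on every array, as did Ifnb1 and Csf2 in their means (1.28 and 1.2). The chemokine receptors were led by Cxcr4 at 8.97 ± 0.06 and Ccr1 at 7.48 ± 0.26.

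Genes used as marks of macrophage activation were neither all high nor all low. Arg1, the arginase of alternatively activated cells, read 9.23, 8.90 and 9.30 and its mean lay at the 98.7th percentile of named probe sets. Nos2, the nitric oxide synthase of classically activated cells, read 1.99, 2.37 and 2.28 and lay below the reference on every array. Among 14 alternative activation genes 9 were above the reference and 5 in the top 25%, including the transglutaminase Tgm2 (7.85 ± 0.31), the mannose receptor Mrc1 (7.02 ± 0.14) and Retnla (5.26 ± 0.26), while Mgl2 and Pdcd1lg2 read 2.36 and 1.81. Among 11 classical activation genes 8 were above the reference and 3 in the top 25%: the co-stimulatory genes Cd86 (6.33 ± 0.12), Cd80 (5.49 ± 0.13) and Cd40 (5.21 ± 0.11). The itaconate enzyme Acod1 read 3.21 ± 0.38. Shares above the reference of 64.3% and 72.7% are read against 58.0% for all named probe sets.

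Interferon-stimulated genes lay mostly in the middle of the range. Of 22 measured, 19 were above the reference and 5 in the top 25%, with a median of 4.43. Over all named probe sets the shares were 58.0% and 25.0% and the median was 2.85. The part of the list in the top 25% was thus close to that of all named probe sets. Ifitm3 and Bst2, both membrane restriction factors, read 8.77 ± 0.20 and 8.21 ± 0.10. Isg15, a ubiquitin-like modifier, read 2.59, 2.89 and 2.59, and Ifit1, a sensor of viral RNA, 2.39, 3.05 and 2.57, around the reference, and Mx1 and Mx2 read 1.65 and 1.57. The start regions of Isg15 (chr4:156200819-156201068, minus strand) and Ifit1 (chr19:34640639-34640888, plus strand) are shown in the same way because they carry the interferon-stimulated response element (ISRE) near the start site while their signal was near background. Capitals mark letters of ISRE matches.
Isg15: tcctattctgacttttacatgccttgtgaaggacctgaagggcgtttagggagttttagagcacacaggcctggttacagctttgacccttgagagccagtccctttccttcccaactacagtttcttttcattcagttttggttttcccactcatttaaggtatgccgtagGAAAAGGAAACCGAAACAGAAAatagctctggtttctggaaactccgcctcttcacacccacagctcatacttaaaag
Ifit1: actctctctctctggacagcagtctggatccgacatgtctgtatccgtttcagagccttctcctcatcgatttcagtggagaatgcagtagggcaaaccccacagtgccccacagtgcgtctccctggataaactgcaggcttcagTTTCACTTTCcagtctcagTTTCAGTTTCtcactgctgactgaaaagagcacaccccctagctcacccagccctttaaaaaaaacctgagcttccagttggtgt

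The ISRE was searched in the form of GAAA, any 2 bases and GAAA again, on both strands. It stood in 11 of 20 promoters of this list (55.0%), against 3.33% of all promoters and 2.99% of promoters of genes in the top 25%. Matches in Isg15 overlap each other, and those in Ifit1 do not.

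**Figure D2:**
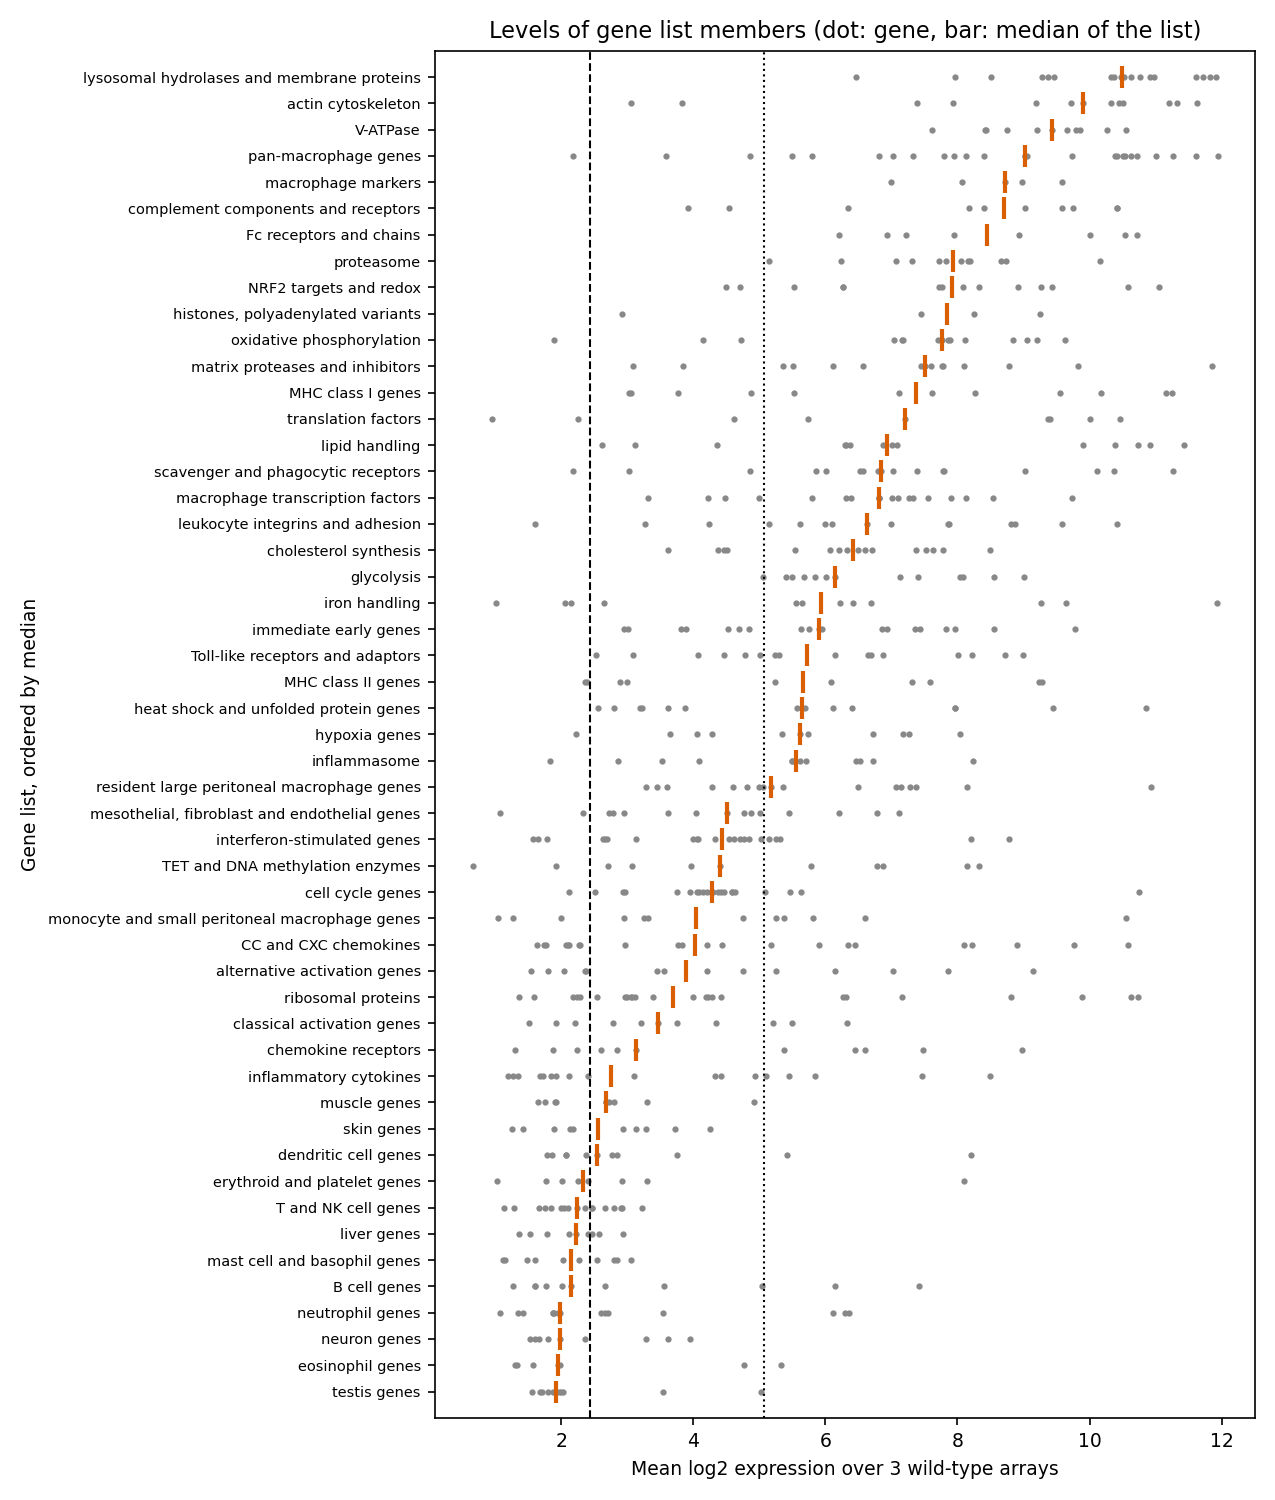
Mean log2 expression over the 3 wild-type arrays (horizontal axis) of the members of each gene list (rows, ordered by list median), with 1 grey dot per measured gene and an orange bar at the median. The dashed line is the reference of 2.44 and the dotted line the start of the top 25% at 5.06; lysosomal genes stand highest with a median of 10.50, and lists of other tissues lie around the reference.

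A signal near the reference did not show that a gene was silent. Several genes that nearly all cells use read low on all 3 arrays: the translationally controlled tumour protein gene Tpt1 0.91, 1.06 and 0.91, the ribosomal protein gene Rpl10 1.17, 1.55 and 1.37 and the ferritin light chain gene Ftl1 2.80, 2.37 and 2.78. Of 24 measured ribosomal protein genes, 19 were above the reference and 7 in the top 25%, with a median of 3.69 and a range from 1.363 for Rpl10 to 10.73 for Rps9. The actin-severing gene Cfl1 read 3.06 ± 0.10 and cytochrome c, Cycs, 1.89 ± 0.33.

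Classes of RNA differed in level. Of 106 small nucleolar RNAs, 98 were above the reference and 80 (75.5%) in the top 25%, with Snord100 (11.48 ± 0.07) and Snord33 (11.45 ± 0.02) highest. Of 2051 long non-coding RNAs, 517 (25.2%) were above the reference and 33 (1.61%) in the top 25%, led by Malat1 at 8.79 ± 0.16 and Neat1 at 7.85 ± 0.11. Of 529 miRNA hairpins, 135 (25.5%) were above the reference. Protein-coding genes made up 19525 of the named probe sets, and 63.3% of them were above the reference.

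Defining genes of other peritoneal and blood cells were mostly near or below the reference. The medians of the lists in this paragraph ran from 1.95 (eosinophils) to 2.33 (red cells and platelets). Their shares above the reference ran from 28.6% (eosinophils) to 46.7% (neutrophils), against 58.0% of all named probe sets. Of all named probe sets, 25.0% were in the top 25%. In bulk RNA, fewer cells of a type and less RNA per cell cannot be told apart. For T and NK cells, 7 of 17 genes were above the reference and none of the 17 in the top 25%, and Cd3e, Cd3g and Trac read 1.84, 1.66 and 2.1. For B cells, 5 of 11 were above it: Blnk (7.41 ± 0.15) and Cd22 (6.14 ± 0.07), followed by Ighm (5.04 ± 0.91), Cd79b (3.56 ± 0.27) and Cd79a (2.66 ± 0.29), while Pax5 and Ms4a1 read 2.14 and 2.01. For neutrophils, 7 of 15 were above it, with Csf3r (6.36 ± 0.28), S100a8 (6.29 ± 0.12) and Mmp8 (6.12 ± 0.16) in the top 25% and S100a9, Ly6g and Camp at 1.95, 1.88 and 1.34. For eosinophils, 2 of 7 were above it, Siglecf (5.32 ± 0.28) and Alox5 (4.76 ± 0.64), and the granule genes Epx and Prg2 read 1.95 and 1.98. For mast cells and basophils, 4 of 10 were above it, the highest being Gata2 at 3.06. For red cells and platelets, 3 of 8 were above it, with the chemokine Pf4, which macrophages also make, at 8.10 ± 0.26 and Hbb-b1 at 1.03.

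The list of mesothelial, fibroblast and endothelial genes stood higher than the others. Of its 15 genes 13 were above the reference (86.7%, against 58.0% of all named probe sets) and 4 were in the top 25%, with a median of 4.51. Decorin, Dcn, read 6.62, 6.94 and 7.78 in replicates 4, 5 and 6, collagen Col1a1 6.51, 6.44 and 7.39 and collagen Col3a1 5.26, 5.02 and 6.05. All of these were highest in replicate 6. The mesothelial genes Upk3b and Wt1 read 4.51 ± 0.19 and 4.76 ± 0.14, Msln 2.33 ± 0.17 and the endothelial genes Cdh5 and Pecam1 2.95 ± 0.20 and 2.79 ± 0.10. Lists for other tissues served as low controls. They gave 3 of 9 above the reference for neuron, 3 of 9 for liver and 6 of 10 for muscle genes. For testis and skin genes the counts were 2 of 10 and 5 of 10, and no gene of these 5 lists reached the top 25%.

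Genes of the resident large peritoneal macrophage were present over a wide range around a middle level. All 17 measured genes of that list were above the reference and 9 were in the top 25%, against 58.0% and 25.0% of all named probe sets. Their median was 5.18, and their means ran from 3.29 to 10.94, the highest being the acute-phase gene Saa3. The defining transcription factor Gata6 read 5.14, 4.70 and 5.14, the adhesion gene Icam2, whose product marks these cells together with F4/80, 5.36, 5.09 and 4.72 and the phosphatidylserine receptor Timd4 4.29, 4.42 and 4.14. Among genes of monocytes and small peritoneal macrophages, 9 of 12 were above the reference: fibronectin, Fn1, read 10.97, 10.06 and 10.64, Ccr2 6.77, 6.53 and 6.51 and Cx3cr1 5.85, 4.97 and 5.32, whereas the blood monocyte antigen gene Ly6c2 read 2.46, 1.75 and 1.77, below the reference in replicates 5 and 6.

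The 3 cultures differed little for most genes. Over the 13437 probe sets above the reference the median SD was 0.16, the 90th percentile 0.32 and the 99th percentile 0.57. An SD under 0.1 was found for 3271 of them (24.3%). Pearson's correlation across genes was 0.985 between replicates 4 and 5, 0.986 between 4 and 6 and 0.987 between 5 and 6. The array medians were 2.77, 2.82 and 2.82. Replicate 4 lay farthest from the other two for 40.1% of probe sets above the reference, replicate 5 for 31.7% and replicate 6 for 28.2%. Among the 15 probe sets of the top 25% with the smallest SD, Prdm1, a transcriptional repressor, read 5.20, 5.20 and 5.20 and Cox6a1, a cytochrome oxidase subunit, 10.79, 10.80 and 10.80. The signalling lymphocyte receptor gene Cd84 read 9.93, 9.93 and 9.92 and the phosphatase gene Ptpn6 8.35, 8.34 and 8.34. Values were deposited to 2 decimals, so an SD this small is limited by rounding.

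**Figure D3:**
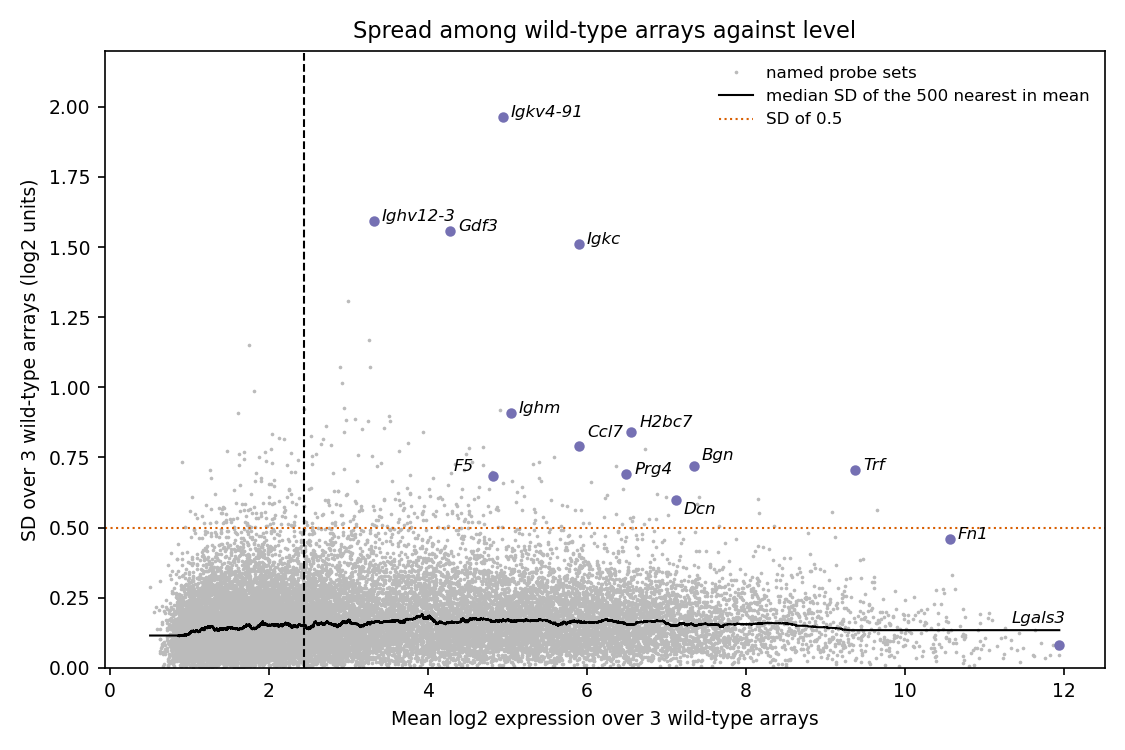
SD over the 3 wild-type arrays in log2 units (vertical axis) against their mean log2 expression (horizontal axis), with 1 grey dot per named probe set, the reference of 2.44 as a dashed line, an SD of 0.5 as a dotted line and the median SD of the 500 probe sets nearest in mean as a black line. The black line stays near 0.16 over most of the range, and Igkv4-91, Ighv12-3, Gdf3 and Igkc stand at an SD of 1.5 or more.

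An SD of at least 0.5 was reached by 243 of the 13437 probe sets (1.81%), 58 of them in the top 25%, and 9 had an SD of at least 1. The count depended on the arrays and the reference: it was 372 without replicate 5, 381 without replicate 6, 141 with the 99th percentile of the sensory receptors as reference and 951 in the group formed by the genotype characteristic. Because these probe sets were chosen for their spread, their values are a description. Replicate 6 was the farthest array for 95 of the 243, high in 75 and low in 20. Replicate 4 was the farthest for 74 (high in 33, low in 41) and replicate 5 for 74 (high in 34, low in 40).

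Immunoglobulin genes spread most. Igkv4-91, a kappa variable segment, read 3.73, 3.89 and 7.21 in replicates 4, 5 and 6, and Ighv12-3, a heavy chain variable segment, 2.25, 2.56 and 5.15. The kappa constant region Igkc read 5.02, 5.02 and 7.64 and the mu constant region Ighm 4.46, 4.58 and 6.09. Replicates 4 and 5 were alike and replicate 6 stood above them by 3.40, 2.75, 2.62 and 1.57 log2 units for Igkv4-91, Ighv12-3, Igkc and Ighm, measured from the mean of the other two. Ighv11-2 read 4.96, 5.37 and 6.42, again highest in replicate 6. As background, heavy chains made with Ighv11-2 or with Ighv12-3, the latter paired with a light chain made with Igkv4-91, are known from peritoneal B-1 cells that recognise phosphatidylcholine. Above the reference, replicate 6 was highest for 8 of 17 kappa probe sets and 17 of 24 heavy chain ones. The same held for 24 of 47 T cell receptor probe sets, against 29.98% over all genes. The mean set against the reference includes replicate 6, so a probe set can pass through a high value there. These counts therefore favour replicate 6. Among those chosen for an SD of at least 0.5, it was highest for 4 of 4 kappa, 7 of 7 heavy chain and 4 of 5 T cell receptor probe sets. Segments of a family share sequence, so a probe set may read more than its own segment. The signalling chains of the B cell antigen receptor, Cd79a and Cd79b, read 2.5, 2.49 and 3.00 and 3.27, 3.62 and 3.79, both highest in replicate 6. Ms4a1, the CD20 gene, read 2.26, 2.06 and 1.71 and the B lineage factor Pax5 2.24, 2.47 and 1.72, both lowest in replicate 6. Over the 11 genes of the B cell list 5 were highest in replicate 6, and the mean deviation from the gene's own mean was -0.09, -0.05 and 0.14 in replicates 4, 5 and 6. The part that B cells had in this spread was not tested.

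Several connective tissue genes among the probe sets chosen for an SD of at least 0.5 were higher in replicate 6. Biglycan, Bgn, read 7.17, 6.72 and 8.13 in replicates 4, 5 and 6, the matrix protein gene Sparc 8.08, 8.03 and 8.93, desmin, Des, 4.10, 4.03 and 5.42, clusterin, Clu, 5.03, 5.04 and 6.19 and the growth factor receptor gene Pdgfra 4.69, 4.41 and 5.51. Replicate 6 was highest for each of these and, as given above, for Dcn, Col1a1 and Col3a1, while replicates 4 and 5 lay within 0.5 of each other. Cdh11, a cadherin of mesenchymal cells, read 4.68, 5.46 and 6.03 and so separated all 3 arrays. In the mesothelial, fibroblast and endothelial list 11 of 15 genes were highest in replicate 6, against 29.98% of all probe sets above the reference. The list's mean deviation was -0.05, -0.17 and 0.22 in replicates 4, 5 and 6. The mesothelial genes of the same list spread less: Wt1 read 4.76, 4.62 and 4.91 and Upk3b 4.53, 4.31 and 4.68. The monocyte chemoattractant genes Ccl2 (5.84, 6.39 and 7.11) and Ccl7 (5.08, 5.95 and 6.66) and Csf1 (5.10, 4.52 and 5.70), the ligand of the receptor Csf1r, were highest in replicate 6 too. All measured chemokine genes together were highest in replicate 6 in 15 of 22 cases, against 29.98% of all probe sets above the reference. Whether the amount of connective tissue RNA had a part in these differences was not tested.

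Gdf3, a member of the TGF-beta family, read 2.70, 4.33 and 5.81 and had an SD of 1.56, the third largest among probe sets above the reference. Each array stood apart by more than 1 log2 unit.

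Trf, the gene of the iron carrier transferrin, read 9.91, 9.62 and 8.57 and was the highest-signal protein-coding gene with an SD of at least 0.5. It was low in replicate 6, as were Chil3 (5.02, 5.16 and 4.10), a chitinase-like protein of alternatively activated cells, Alox5 (5.37, 4.82 and 4.10), the leukotriene-forming lipoxygenase, and the cystine transporter gene Slc7a11 (5.16, 4.82 and 4.15).

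Several genes of resident peritoneal macrophages were higher in replicate 4, the only array that is wild-type by both labels. Prg4, a lubricating proteoglycan, read 7.28, 5.98 and 6.22, the coagulation factor gene F5 5.60, 4.33 and 4.53 and the lipoxygenase gene Alox15 4.14, 3.10 and 3.10 in replicates 4, 5 and 6. Replicates 5 and 6 lay within 0.3 of each other, and replicate 4 stood above them by 1.18 for Prg4, 1.17 for F5 and 1.04 for Alox15. The resident list as a whole had a mean deviation of 0.21, -0.19 and -0.03, with 9 of 17 genes highest in replicate 4, against 38.6% of all probe sets above the reference. The list of monocyte and small peritoneal macrophage genes deviated by 0.21, -0.09 and -0.12, with 7 of 12 highest in replicate 4, and the 5 macrophage markers by 0.24, -0.19 and -0.05, with 4 of 5, so the order was not particular to the resident list. The oxidised lipoprotein receptor Olr1 read 8.0, 6.84 and 7.30 and the phosphatase gene Acpp 5.94, 4.62 and 4.17, both highest in replicate 4. Gata6 and Timd4 did not share this order: each array of Gata6 lay within 0.44 of the others, with replicate 5 low, and Timd4 was highest in replicate 5.

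**Figure D4:**
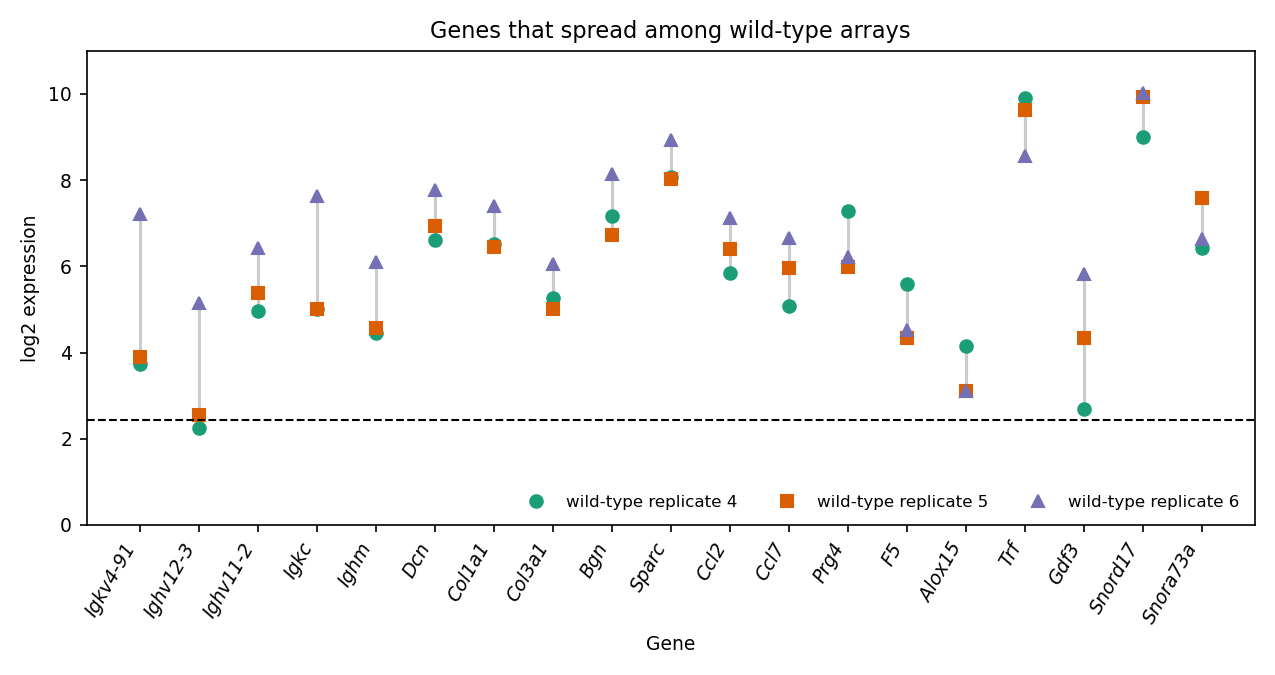
Log2 expression (vertical axis) of 19 genes that spread among the wild-type arrays (horizontal axis), with 1 symbol per array: circles for replicate 4, squares for replicate 5 and triangles for replicate 6. Triangles stand highest from Igkv4-91 to Ccl7 and for Gdf3 and Snord17, circles stand highest for Prg4, F5, Alox15 and Trf, and the dashed line is the reference of 2.44.

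Small RNAs and a few probe sets of ubiquitous proteins spread as well. Snord17, a guide RNA of ribosomal RNA modification, read 9.0, 9.92 and 10.02, Snora41 5.83, 7.16 and 6.94 and Snora30 6.29, 7.34 and 7.35, all low in replicate 4. Snora73a and Snora73b, near copies of each other, read 6.42, 7.58 and 6.63 and 7.71, 8.78 and 8.01, both high in replicate 5. Over the 106 small nucleolar RNAs the median deviation was -0.22, 0.17 and 0.09 in replicates 4, 5 and 6, and 10 of the 98 above the reference had an SD of at least 0.5 (10.2%, against 1.81% of all). The histone variant gene H3f3a read 1.75, 3.53 and 3.49 and the ribosomal protein gene Rpl37a 3.51, 4.86 and 4.48, both lowest in replicate 4. Nearest to the limit of 0.5 among the genes of the lists and this account, Sparc stood inside it with an SD of 0.506, and the protease inhibitor gene Timp3 (6.43, 6.15 and 7.12) stood outside it with an SD of 0.499.

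Replicate 4 differed from the other two by small steps over several whole lists. This split runs along the conflicting label, since replicates 5 and 6 carry the characteristic Tet2-/- and replicate 4 does not, so genotype by that label and a difference of a single culture cannot be told apart here. Of the 25 lists with at least 5 measured genes whose mean deviation spanned at least 0.15 log2 units between arrays, 17 were above 0 in replicate 4. These lists were chosen by that span and some share genes, so they are not separate counts of a shift. Lists with a smaller span lay on both sides of 0 in replicate 4, such as alternative activation (0.07) and dendritic cell genes (-0.04). Replicate 5 stood apart in some lists too. Immediate early genes deviated by 0.07, -0.16 and 0.09 in replicates 4, 5 and 6. Of these genes 16 of 19 were lowest in replicate 5, against 34.9% of all probe sets above the reference. Probe sets above the reference were also compared by pairs of arrays. Differences of at least 1 log2 unit were found in 77 (replicates 4 and 5), 88 (4 and 6) and 99 (5 and 6) of them. Integrin and adhesion genes deviated by 0.22, -0.14 and -0.07 in replicates 4, 5 and 6, with 12 of 15 highest in replicate 4, and glycolysis genes by 0.19, -0.07 and -0.12, with 12 of 13. Scavenger receptors deviated by 0.17, -0.16 and -0.01, and complement genes by 0.18, -0.14 and -0.03. Proteasome genes went the other way, -0.17, 0.12 and 0.05, with none of 12 highest in replicate 4, and oxidative phosphorylation genes by -0.10, 0.08 and 0.02. Over all probe sets above the reference the mean deviation was 0.00, -0.01 and 0.01, and 38.6% were highest in replicate 4. The length of genes moved with this difference. Of 4 equal groups of protein-coding genes by genomic span, the shortest (up to 9.25 kb) had a median deviation of -0.04 in replicate 4 and the longest (from 50.5 kb) one of 0.09. In the longest group the value was -0.06 in replicate 5 and -0.02 in replicate 6. The part of span in the differences between lists was not tested.

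**Figure D5:**
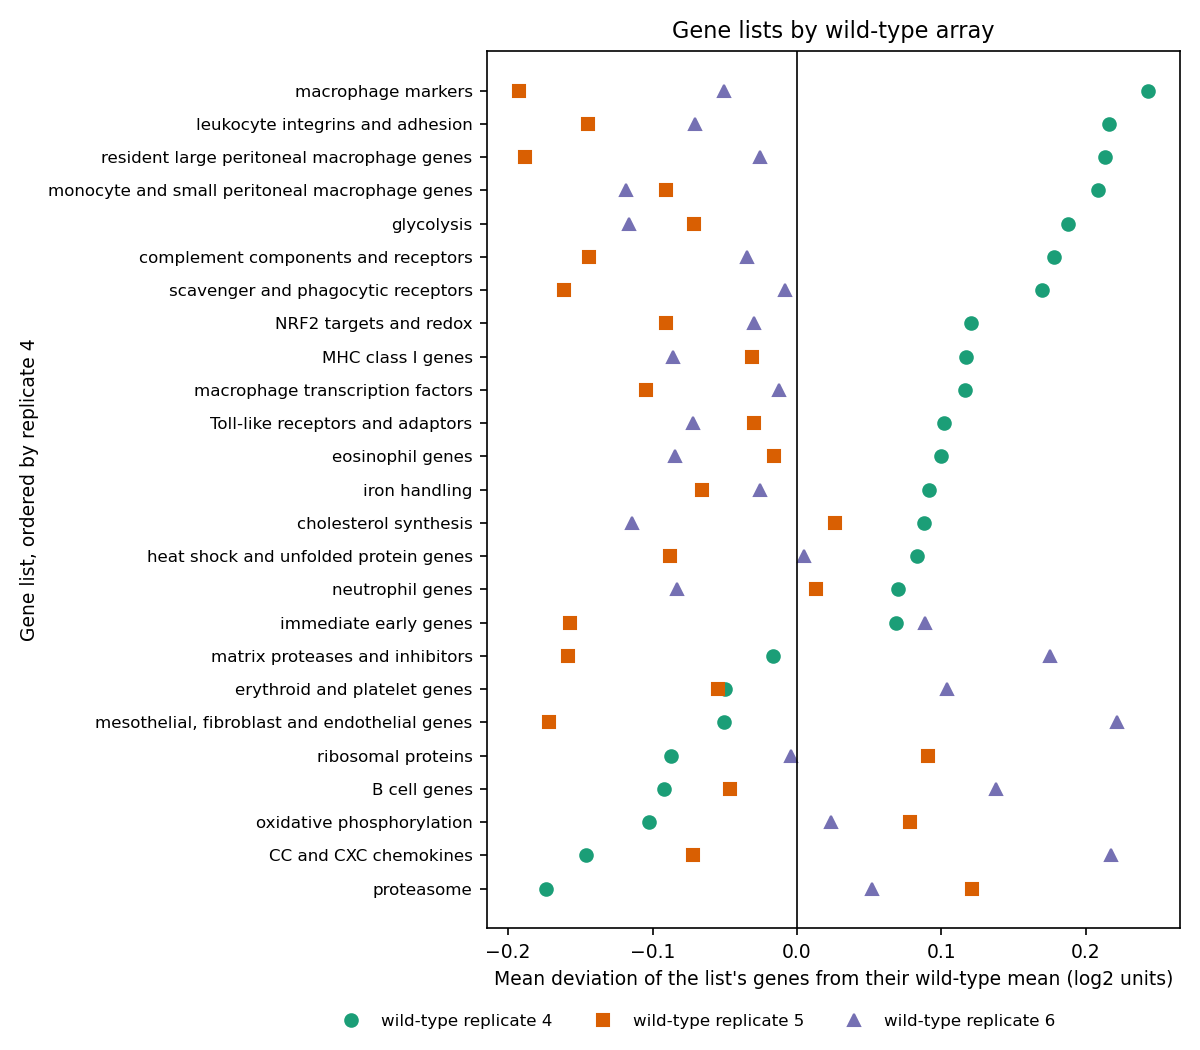
Mean deviation of each gene list from the genes' own wild-type means, in log2 units (horizontal axis), by array, for the lists with at least 5 measured genes and a span of at least 0.15 between arrays (rows, ordered by replicate 4). Circles (replicate 4) lie to the right of 0 for 17 of the 25 lists and to the left for proteasome, ribosomal protein and oxidative phosphorylation genes, while triangles (replicate 6) lie farthest right for connective tissue genes and chemokines.

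The spread was set beside that within the 3 arrays titled Tet2 deficient, each group taken by itself. Of the 243 probe sets with an SD of at least 0.5 among wild-type arrays, 96 (39.5%) had such an SD in the other group too, against 1172 (8.72%) of all 13437. Those 96 are 8.19% of the 1172. Across the 13437 genes the SDs of the 2 groups had a Spearman correlation of 0.25, which is a description, since genes are not independent. Ighm read 6.21, 7.59 and 4.18 in replicates 4, 5 and 6 of the other group, Alox15 5.93, 6.91 and 3.74 and Prg4 7.65, 8.79 and 5.99. All of them spread by more than in the wild-type arrays. Igkv4-91 read 3.21, 3.16 and 3.52 there, and Ighv12-3 2.25, 2.1 and 2.21, with SDs of 0.20 and 0.08.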

How the data were processed

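RNA from 6 macrophage samples was measured on Affymetrix whole-transcript arrays, 3 of them titled wild-type. The authors deposited 1 log2 value per probe set and array, and the submitters' processing notes name affy 1.36.1 and RMA, a method that subtracts background, equalises the arrays and combines the probes of a set, and that compresses differences near background. No source states the log2 scale outright: it follows from that method and from values of 0.19 to 12.03 on these 3 arrays. Which probes make up a probe set is not given in the sources used here. The platform table named 23185 of 25206 probe sets, and RefSeq (GRCm38.p6) holds all 23185 under the same symbol. The 2021 unnamed probe sets were left out of ranks.

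Means, SDs and ranks were computed with Python 3.11.15, numpy 2.4.6 and pandas 2.3.3, and figures were drawn with matplotlib 3.10.9. The code that computes SDs was tested on simulated data. With 1 group there is no comparison and no p-value, and the number of arrays, 3, limits precision. The reference is the 95th percentile of the sensory receptor means. The 51 gene lists hold 694 different genes, each counted once over all lists, of which 641 were measured. Listed genes were matched by current symbol, or by an older symbol checked by hand. Genes are named by rule: the 5 markers, the 40 highest means, the 30 largest SDs, the 15 largest SDs relative to the 500 probe sets nearest in mean, the 15 smallest SDs of the top 25%, up to 6 per list, and members of other cell types' lists above the reference. Some of these were left out, and others were named after their values were seen because a group is described with them. The gene set, lists, motifs and rules were chosen with earlier results of these data known. Alternatives were the grouping by the genotype characteristic, scaling, the reference, the filter and leaving out each array. Same-numbered arrays of the 2 groups had correlations of deviations of 0.21, -0.30 and 0.19. Wild-type replicate 4 had 0.49 with replicate 5 of the other group and -0.49 with its replicate 6. Deviations within a group of 3 arrays sum to 0, so these values depend on each other. They cannot show whether same-numbered cultures were prepared together, and no pairing was used.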

Additional observations from a re-analysis of the deposited data

Results flagged for a closer look

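Of the 2021 probe sets that the platform table does not name, 983 had a wild-type mean at or above the reference of 2.44 log2 units, which is 48.6% of them, against 58.0% of the named ones. They are a signal in data that the report does not use. The highest of them had a mean of 11.5, 303 lay at or above the start of the top 25%, and 2 lay at or above the 40th highest named probe set. What these probe sets measure was not tested.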

How the results depend on the processing

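The number of named probe sets above the reference stayed within 1.5 times of 13437 under every alternative run, from 9003 (99th percentile of the sensory receptors as reference) to 13528 (without replicate 5). With samples grouped by the genotype characteristic, which keeps replicate 4 and adds a pair of arrays titled Tet2 deficient, the median SD was 0.220 instead of 0.161, the count with an SD of at least 0.5 was 951 instead of 243, and the most deviant array was the farthest for 55.1% of probe sets instead of 40.1%. The cause was not tested. With the 99th percentile as reference the count was 141, where fewer probe sets were above the reference. Without each replicate in turn the median SD ran from 0.113 to 0.141 and the count from 336 (without replicate 4) through 372 (without replicate 5) to 381 (without replicate 6). An SD of 2 values is less precise than an SD of 3. Of 33 gene levels followed, 33 moved by less than 1 SD under the scaling settings and 26 under the genotype characteristic. A mean of 3 arrays cannot move by 1 SD when 1 array is left out, so that setting does not bear on the levels. The span of list means between arrays moved for 25 of 51 lists without replicate 4, for 13 without replicate 5, for 12 without replicate 6 and for 34 with the characteristic. When an array is left out, this span stays the same or shrinks, depending on whether that array was an extreme one. The counts without each replicate therefore reflect which array was extreme and do not bear on how stable the spans are. No paired analysis was possible because a single group is described and no test was run. Dim probe sets near the reference limit what can be said of low genes.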

Other observations

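Other gene groups fell between the extremes. Immediate early genes, which respond within minutes to many signals, were all above the reference (19 of 19) with a median of 5.91 log2 units, led by Atf3 (9.68, 9.84 and 9.80 in replicates 4, 5 and 6), Klf6 (8.56, 8.49 and 8.63) and Jun (8.13, 7.88 and 7.89). Fosb and Egr3 were lowest at 3.01 ± 0.16 and 2.95 ± 0.10. Cell cycle genes were above the reference in 21 of 22 cases, with 4 in the top 25% and a median of 4.29. The replication clamp gene Pcna stood far above the rest at 10.65, 10.88 and 10.73, whereas the proliferation marker Mki67 read 4.67, 4.52 and 4.72 and the mitotic kinase gene Cdk1 3.79, 4.24 and 4.58.

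Among enzymes that write, erase or read DNA methylation, 9 of 11 were above the reference with a median of 4.40. The methyl-CpG binder Mbd2 read 8.33 ± 0.07, the de novo methyltransferase Dnmt3a 8.14 ± 0.12 and the maintenance enzyme Dnmt1 6.78 ± 0.17. Of the TET dioxygenases, Tet3 read 5.78 ± 0.03, Tet2 3.96 ± 0.34 and Tet1 1.92 ± 0.14, the last below the reference. Heat shock and unfolded protein genes were above the reference in 15 of 15 cases, from Hspb1 at 2.56 ± 0.12 to Hspa8 at 10.86 ± 0.01, with the endoplasmic reticulum chaperone Hspa5 at 9.44 ± 0.02. Dendritic cell genes were above the reference in 6 of 11 cases (54.5%, against 58.0% of all named probe sets). Of these, Bst2, also interferon-induced, and Tcf4 (5.41 ± 0.17) reached the top 25%, while Flt3, Clec9a and Xcr1 read 1.86, 1.79 and 2.08. Among miRNA hairpins, Mir692-1 (9.85 ± 0.19) and Mir449b (9.17 ± 0.15) had the highest signals. The array reads whole transcripts, and the mature miRNAs were not measured.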
